A study of Bos taurus with 8 samples.

Results

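The genes described here are the cyclins, cyclin-dependent kinases (CDKs) and mitotic regulators of eight-cell cattle embryos. They were taken by name, as every gene whose symbol begins with CDK, CDC, AURK, PLK, BUB or ANAPC, or with CCN followed by a letter from A to L and a digit. Symbols that begin with CDC42 and 1 A-type cyclin were left out. This gave 98 of the 21258 features measured, 14158 of which carry a symbol. Cyclins with no digit in their symbol, such as CCNC and CCNH, fall outside it. A few genes that share the letters but not the role fall inside it, such as CDCP1, a membrane glycoprotein, and CDKAL1, an enzyme that modifies transfer RNA.

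RNA was sequenced from pools of 8 Holstein embryos, 1 pool per library. The 3 kinds of embryo were cloned embryos in which KDM4E, a histone demethylase, was overexpressed (KDM4E-SCNT, 2 libraries), embryos made by in vitro fertilisation (IVF, 3 libraries) and cloned embryos without the overexpression (SCNT, 3 libraries). SCNT, somatic cell nuclear transfer, puts the nucleus of a body cell into an egg whose own nucleus was removed, and the series treats the SCNT embryos as the control for both other kinds. The labels name neither the donor cells, the means of overexpression nor the hour of collection, and they do not say that pools came from separate rounds of embryo production, so p-values reflect the spread among these pools, which may be partly technical. No feature carries the symbol KDM4E, and the level of the overexpressed transcript was not analysed here.

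Entry into mitosis is driven by CDK1 bound to a B-type cyclin. WEE kinases hold that complex back by phosphorylating it, and CDC25 phosphatases release it. The anaphase-promoting complex (APC/C), a ubiquitin ligase activated by CDC20, then marks B-type cyclins and securin for destruction once the spindle checkpoint, which includes the BUB proteins, is satisfied. D- and E-type cyclins with CDK4, CDK6 and CDK2 govern entry into S phase in body cells, and CDK inhibitors oppose them. Cleavage embryos divide largely on mRNA stored in the egg, and in cattle the embryonic genome becomes widely active around the eight-cell stage.

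Levels are FPKM, fragment counts scaled by transcript length and library size, so that genes can be set side by side within a library. Between libraries an FPKM value also depends on what else the library holds, and results under other scalings are given below. Between 10975 and 13050 features per library reached 1 FPKM. Features with at least 1 FPKM in at least 2 libraries were tested on log2(FPKM + 1) by limma, and each difference below is on that scale with its standard error. Genes with an adjusted p under 0.05 count as called. All 13 oocyte and early embryo markers in the list were at 1 FPKM or more in every library, and their summed level was 21760 and 25631 FPKM in KDM4E-SCNT, 28440 to 35199 FPKM in IVF and 5553 to 10363 FPKM in SCNT. Most of that sum was BTG4 and DPPA3, and 11 of the 13 were higher in IVF than in SCNT and 10 higher in KDM4E-SCNT than in SCNT. NANOG, a pluripotency factor, went the other way, at 18.5 and 20.1 FPKM in KDM4E-SCNT, 7.58, 1.86 and 3.09 FPKM in IVF and 107, 59.0 and 90.6 FPKM in SCNT, and was called lower in both comparisons with SCNT. KLF17 was called in neither. The 16 fibroblast markers present summed to 104 and 398 FPKM in KDM4E-SCNT, 47.6 to 75.4 FPKM in IVF and 124 to 196 FPKM in SCNT, with THY1 listed at 0 in every SCNT library. Of the 13 fibroblast markers tested for IVF minus SCNT, FBN1 and FN1 were higher in IVF, LGALS1, SPARC, PDGFRA, DCN and S100A4 were lower and 6 were not called. FBN1 was at 15.7 and 19.7 FPKM in KDM4E-SCNT, a mean of 26.8 ± 9.01 in IVF against 5.13 ± 3.97 in SCNT libraries (± SD over 3 libraries), and SPARC at 10.4 and 53.3 FPKM in KDM4E-SCNT, 0.52, 0.59 and 0.94 FPKM in IVF and 50.6, 29.5 and 23.6 FPKM in SCNT. For KDM4E-SCNT minus SCNT, FBN1, S100A4 and VIM were higher, PDGFRA was lower and 9 were not called. LUM, S100A4, SPARC and VIM were higher in KDM4E-SCNT than in IVF, and 9 were not called. Of the oocyte and early embryo markers, NANOG was higher in KDM4E-SCNT than in IVF, H1FOO was lower and 11 were not called. The 9 cumulus and granulosa markers summed to 47.3 and 101 FPKM in KDM4E-SCNT, 101 to 163 FPKM in IVF and 16.6 to 25.1 FPKM in SCNT, with FSHR listed at 0 in every SCNT library and both KDM4E-SCNT libraries. In IVF and KDM4E-SCNT most of that sum was HAS2 and STAR. Of the 5 tested for IVF minus SCNT, HAS2, PTGS2 and STAR were higher in IVF, TNFAIP6 was lower and 1 was not called. For KDM4E-SCNT minus SCNT, HAS2 and STAR were higher and 3 were not called. None of the 5 was called for KDM4E-SCNT minus IVF. These sums differ between the groups compared below, and their part in those results was not tested. In pooled embryos, fewer cells with a transcript and less transcript per cell cannot be told apart, and an FPKM value is a share of its library.

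Of the 98 genes, 85 passed the filter and 74 were at 1 FPKM or more in all 8 libraries. Over all features tested, KDM4E-SCNT replicate 1 had a Spearman correlation of 0.79 to 0.82 with the IVF libraries and of 0.80 to 0.84 with the SCNT libraries, while KDM4E-SCNT replicate 2 had 0.86 to 0.89 and 0.74 to 0.78. The 13 that did not pass were CCND1, CCND2, CCND3, CDK3, CDK10, CDK18, CDK5R1, CDK5R2, CDKL3, CDKL4, CDKN1C, CDCA4 and ANAPC2, and their highest value in any library was 3.54 FPKM. Together the 98 genes made up 1.00% and 1.19% of all FPKM in KDM4E-SCNT, 1.85%, 1.29% and 1.55% in IVF and 0.673%, 0.635% and 0.689% in SCNT. The share was lowest in the SCNT libraries, and no group overlapped another. Among the most abundant members, AURKA averaged 1531 FPKM in KDM4E-SCNT, 2488 FPKM in IVF and 478 FPKM in SCNT. CCNB1 averaged 949.9 FPKM in KDM4E-SCNT, 1884 FPKM in IVF and 779 FPKM in SCNT.

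Between IVF and SCNT embryos, 35 of the 85 members tested were higher in IVF, 19 were lower and 31 were not called. This is 63.5% called, against 58.5% of all 14839 features tested, of which 34.9% were higher and 23.6% lower. The IVF and SCNT libraries did not overlap for 38 members higher and 23 lower in IVF, against 64.4% of all features. The median difference was 0.40 over the members and 0.39 over all features, so the members as a body lay near the background, and the results are in which of them moved and in which direction. Median-ratio scaling brought the median over all features to 0.10, and 49.0% of the members then called were higher, against 64.8% on the values as deposited.

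Between KDM4E-SCNT and SCNT embryos, 21 members were higher in KDM4E-SCNT, 6 were lower and 58 were not called. This is 31.8% called, against 32.6% of all features, of which 21.6% were higher and 11.0% lower, with a median of 0.27 over the members and 0.32 over all features. The libraries of these groups did not overlap for 33 members higher and 16 lower in KDM4E-SCNT, against 59.5% of all features in either direction and 38.1% higher. Without KDM4E-SCNT replicate 2 the calls numbered 11 higher and 1 lower, and the lower calls numbered 3 without IVF replicate 3 or without SCNT replicate 1 or 3. Under median-ratio scaling they were 13 higher and 12 lower, with the median over all features at 0.02. The IVF and KDM4E-SCNT comparisons share the 3 SCNT libraries. Between KDM4E-SCNT and IVF, 2 members were higher in KDM4E-SCNT, CDK1 and CDKN3, which is 2.35% called against 6.52% of all features, 5.9% higher and 0.62% lower. At an unadjusted p under 0.05 by limma, 6 members were higher and 10 were lower. The share of all features at that threshold was not counted, so no direction is read from these counts. By adjusted p none was lower. Without IVF replicate 2, 1 was higher and 2 were lower, without IVF replicate 3, 1 was higher, and without KDM4E-SCNT replicate 1 neither call was kept. The libraries did not overlap for 12 members higher and 12 lower, against 33.9% of all features. The median was -0.12 over the members and -0.03 over all features.

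**Figure D1:**
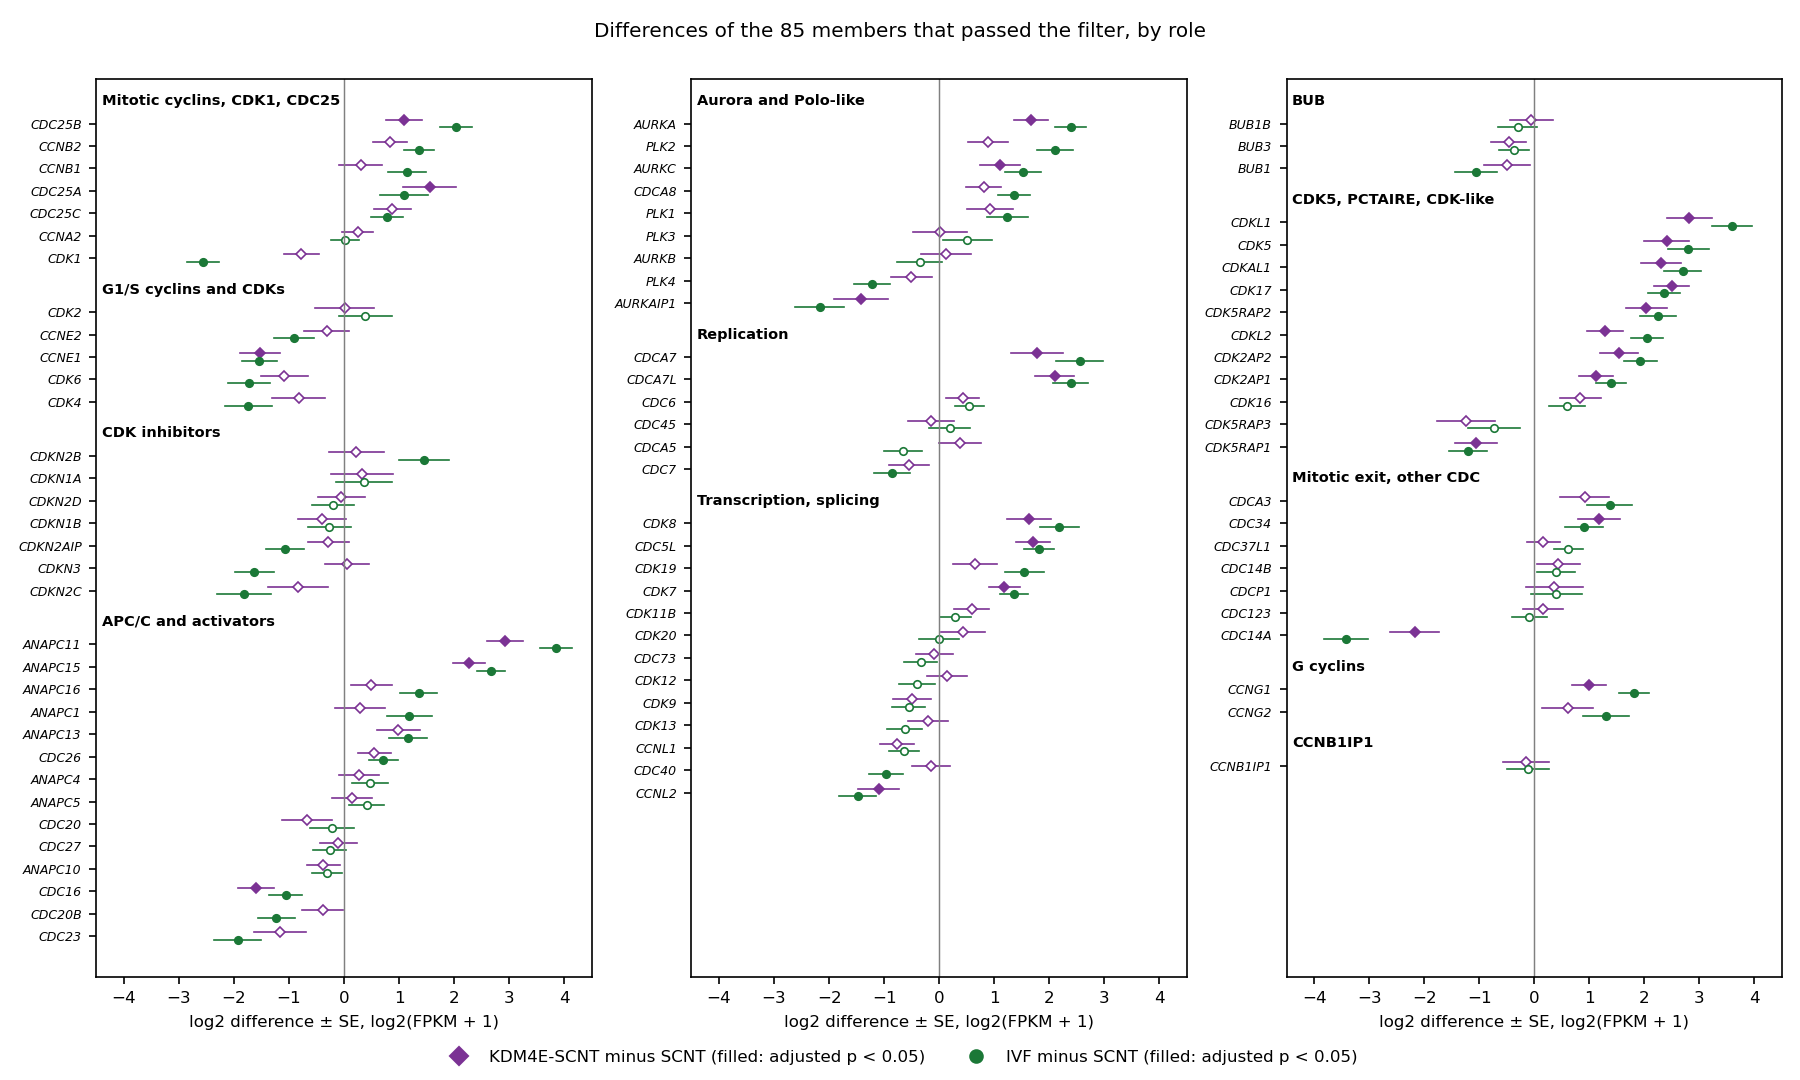
Log2 differences with standard errors for the 85 members that passed the filter, grouped by role: KDM4E-SCNT minus SCNT (purple diamonds, n = 2 and 3 libraries) and IVF minus SCNT (green circles, n = 3 and 3), filled where the adjusted p was under 0.05. ANAPC11 and CDKL1 lie farthest to the right in both comparisons and CDC14A farthest to the left.

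The kinase that starts mitosis and the B-type cyclins that activate it differed in opposite directions between IVF and SCNT embryos. Of the 7 members in the group of mitotic cyclins, CDK1 and CDC25 phosphatases, 5 were higher in IVF, 1 was lower and 1 was not called. This is 85.7% called, against 58.5% of all features. The member that was lower was CDK1 itself (ENSBTAG00000010109.2, chromosome 28, 16620266 to 16633922, UMD3.1). CDK1 stood at 515 and 289 FPKM in KDM4E-SCNT, 107, 140.0 and 92.1 FPKM in IVF and 577, 646 and 779.5 FPKM in SCNT. Every IVF library was lower than every KDM4E-SCNT library, and every KDM4E-SCNT library was lower than every SCNT library. The difference was -2.56 ± 0.29, adjusted p = 1.48e-05 for IVF minus SCNT and 1.79 ± 0.32, adjusted p = 0.00458 for KDM4E-SCNT minus IVF. For KDM4E-SCNT minus SCNT it was -0.78 ± 0.32, adjusted p = 0.0788, so CDK1 was not called there. That difference was called without KDM4E-SCNT replicate 1 or with median-ratio scaling or upper-quartile scaling (adjusted p = 0.0168 to 0.0354), while it was -0.36 with an adjusted p of 0.51 without KDM4E-SCNT replicate 2. The call against IVF ended without KDM4E-SCNT replicate 1 (adjusted p = 0.0761).

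CCNB1 (cyclin B1, ENSBTAG00000014239.5, chromosome 20, 10431453 to 10441126), the main mitotic partner of CDK1, stood at 989 and 911 FPKM in KDM4E-SCNT, 2905, 943 and 1802 FPKM in IVF and 935, 661 and 739 FPKM in SCNT. All 3 IVF libraries were above all 3 SCNT libraries, but IVF replicate 2 lay just above the highest SCNT library and the IVF values spread widely. The difference was 1.14 ± 0.34, adjusted p = 0.0125 for IVF minus SCNT. That call ended without IVF replicate 1 or with median-ratio scaling (adjusted p = 0.0682 to 0.0982). KDM4E-SCNT against SCNT was not called (adjusted p = 0.569). KDM4E-SCNT minus IVF was called, as lower in KDM4E-SCNT, only without IVF replicate 2 (-1.27, limma adjusted p = 0.036). CCNB2 (cyclin B2) stood at 107 and 139.5 FPKM in KDM4E-SCNT, 199, 137 and 207 FPKM in IVF and 82.6, 62.3 and 62.8 FPKM in SCNT. Its lowest IVF library was above every SCNT library, and both KDM4E-SCNT libraries were also above every SCNT library. The difference was 1.36 ± 0.28, adjusted p = 0.00108 for IVF minus SCNT and 0.83 ± 0.31, adjusted p = 0.0561 for KDM4E-SCNT minus SCNT, called only without IVF replicate 2 (adjusted p = 0.0404). CCNA2 (cyclin A2), which acts in S phase and at mitotic entry, stood at 273 and 213 FPKM in KDM4E-SCNT, 228, 182 and 206 FPKM in IVF and 179.7, 249.7 and 186 FPKM in SCNT, and the 3 groups overlapped. It was called in no comparison (adjusted p = 0.974 for IVF minus SCNT).

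Set against the summed level of CCNA2, CCNB1 and CCNB2, a ratio chosen after the values were seen and given without a test, CDK1 amounted to 0.376 and 0.229 in KDM4E-SCNT, 0.032, 0.111 and 0.0416 in IVF and 0.482, 0.664 and 0.789 in SCNT. The ratio was thus highest in the SCNT libraries, intermediate in the KDM4E-SCNT libraries and lowest in the IVF libraries, with no overlap. The cyclins in the denominator summed to 1369 and 1263 FPKM in KDM4E-SCNT, 3333, 1262 and 2214 FPKM in IVF and 1198, 973 and 988 FPKM in SCNT.

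The CDC25 phosphatases remove the inhibitory phosphates from CDKs, and all 3 were higher in IVF than in SCNT. CDC25B, the form tied in mouse oocytes to the resumption of meiosis, stood at 14.6 and 12.8 FPKM in KDM4E-SCNT, 33.7, 24.9 and 23.8 FPKM in IVF and 5.44, 6.50 and 5.76 FPKM in SCNT. The groups did not overlap. The difference was 2.03 ± 0.29, adjusted p = 9.66e-05 for IVF minus SCNT and 1.09 ± 0.33, adjusted p = 0.024 for KDM4E-SCNT minus SCNT. CDC25C was the most abundant of the 3, with 206 and 206 FPKM in KDM4E-SCNT, 159.6, 258 and 173 FPKM in IVF and 79.4, 136 and 128 FPKM in SCNT. Both KDM4E-SCNT libraries and all IVF libraries were above every SCNT library, and the IVF and KDM4E-SCNT libraries overlapped. The difference was 0.78 ± 0.29, adjusted p = 0.0359 for IVF minus SCNT and 0.88 ± 0.33, adjusted p = 0.0557 for KDM4E-SCNT minus SCNT, called only without IVF replicate 2 or with stricter filter or quantile normalization (adjusted p = 0.0378 to 0.0497). CDC25A, which acts at the G1/S transition and at mitotic entry, was low, with 2.92 and 5.42 FPKM in KDM4E-SCNT, 1.26, 3.42 and 3.87 FPKM in IVF and 0.76, 1.53 and 0.12 FPKM in SCNT. Its IVF and SCNT libraries overlapped, and both KDM4E-SCNT libraries were above every SCNT library. The difference was 1.10 ± 0.43, adjusted p = 0.0444 for IVF minus SCNT and 1.55 ± 0.48, adjusted p = 0.0277 for KDM4E-SCNT minus SCNT.

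Several CDC25 calls were fragile. For IVF minus SCNT, the CDC25C call ended without IVF replicate 2 or 3 or SCNT replicate 1 or 3 or with no filter, median-ratio scaling or upper-quartile scaling (adjusted p = 0.0549 to 0.353), and the CDC25A call ended without IVF replicate 2 or 3 or SCNT replicate 1 or 3 or with no filter, median-ratio scaling, upper-quartile scaling or quantile normalization (adjusted p = 0.0663 to 0.178). For KDM4E-SCNT minus SCNT, the CDC25B call ended without SCNT replicate 1 or 3 or KDM4E-SCNT replicate 1 or 2 or with median-ratio scaling, upper-quartile scaling or quantile normalization (adjusted p = 0.0597 to 0.136), and the CDC25A call ended without SCNT replicate 1 or 3 or KDM4E-SCNT replicate 2 or with no filter, median-ratio scaling or quantile normalization (adjusted p = 0.0549 to 0.208).

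**Figure D2:**
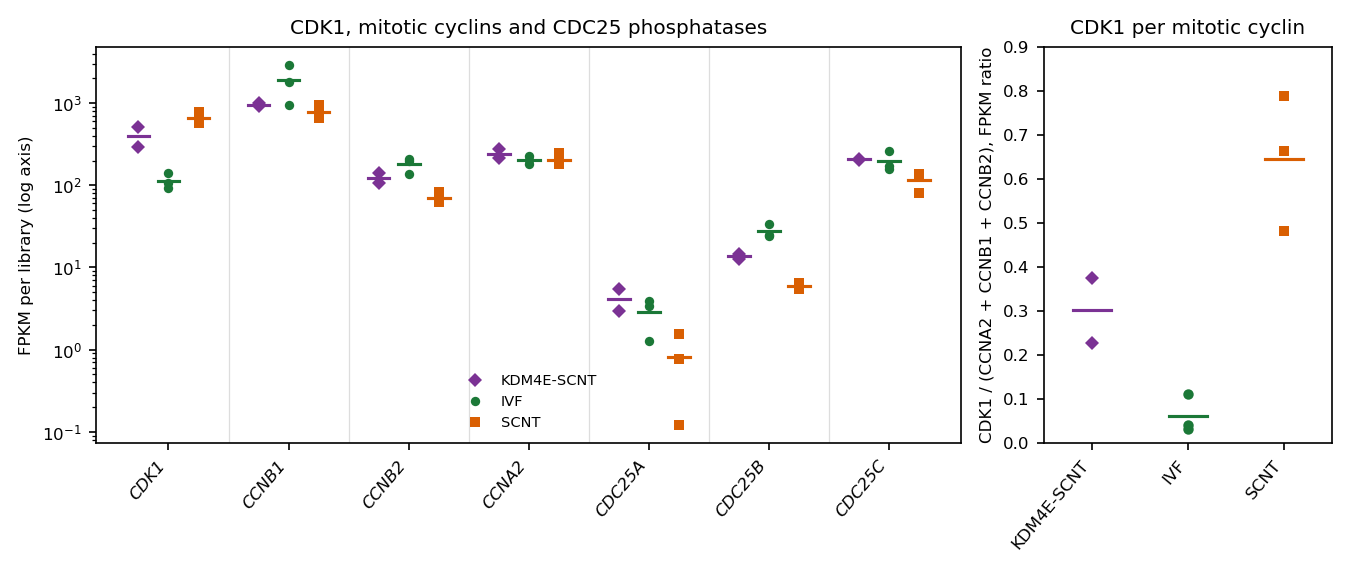
FPKM on a log axis in each of the 8 libraries for CDK1, the mitotic cyclins and the CDC25 phosphatases (left), and the FPKM of CDK1 per summed FPKM of CCNA2, CCNB1 and CCNB2 on a linear axis (right), with KDM4E-SCNT, IVF and SCNT from left to right; each point is 1 library and each bar a group mean. CDK1 is lowest in IVF (92.1 to 140.0 FPKM), where CDC25B is highest (23.8 to 33.7 FPKM).

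The called members of the list of G1 and S phase cyclins and CDKs were lower in IVF than in SCNT. Of 5 tested members of the G1 and S phase group, 4 were lower in IVF and 1, CDK2, was not called. The called share was 80.0%, against 58.5% of all features. CCNE1 (cyclin E1), which with CDK2 starts DNA replication, stood at 22.2 and 11.6 FPKM in KDM4E-SCNT, 14.7, 16.7 and 16.4 FPKM in IVF and 63.3, 46.7 and 37.5 FPKM in SCNT. All KDM4E-SCNT and IVF libraries were below all SCNT libraries. The difference was -1.54 ± 0.32, adjusted p = 0.00141 for IVF minus SCNT and -1.52 ± 0.36, adjusted p = 0.00802 for KDM4E-SCNT minus SCNT, and the second of these calls ended without KDM4E-SCNT replicate 2 (adjusted p = 0.104). CCNE2 (cyclin E2) stood at 36.6 and 12.6 FPKM in KDM4E-SCNT, 12.8, 15.7 and 13.4 FPKM in IVF and 29.9, 27.7 and 24.3 FPKM in SCNT. The 2 KDM4E-SCNT libraries lay on either side of the other groups, 1 above every SCNT library and 1 below every IVF library. The difference was -0.92 ± 0.36, adjusted p = 0.0451 for IVF minus SCNT, a call that ended without IVF replicate 1, 2 or 3 or SCNT replicate 1, 2 or 3 or with no filter (adjusted p = 0.0558 to 0.115). CDK2, the partner of the E-type cyclins, stood at 30.8 and 25.9 FPKM in KDM4E-SCNT, 68.2, 14.3 and 50.8 FPKM in IVF and 34.7, 18.7 and 33.7 FPKM in SCNT, with wide spread within IVF (adjusted p = 0.5 for IVF minus SCNT). Without IVF replicate 2, CDK2 was called, as higher in IVF (limma adjusted p = 0.0232).

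The kinases of the D-type cyclins were low. CDK4 stood at 7.41 and 5.24 FPKM in KDM4E-SCNT, 4.83, 0.95 and 3.94 FPKM in IVF and 15.4, 8.72 and 12.2 FPKM in SCNT. Every SCNT library was above every IVF library and both KDM4E-SCNT libraries. The difference was -1.74 ± 0.43, adjusted p = 0.00378 for IVF minus SCNT, and KDM4E-SCNT minus SCNT was not called (adjusted p = 0.199). CDK6 stood at 0.89 and 0.38 FPKM in KDM4E-SCNT, 0, 0 and 0.12 FPKM in IVF and 1.59, 1.89 and 4.42 FPKM in SCNT, listed at 0 in 2 of the 3 IVF libraries. The difference was -1.73 ± 0.38, adjusted p = 0.00196 for IVF minus SCNT. The D-type cyclins themselves did not pass the filter. CCND1 was listed at 0 in 6 of 8 libraries, with 1.12 FPKM in KDM4E-SCNT replicate 2 and 0.88 FPKM in IVF replicate 2. CCND2 had its highest value, 3.54 FPKM, in KDM4E-SCNT replicate 1 and stayed under 1 FPKM elsewhere. CCND3 was at 0.43 and 0.71 FPKM in KDM4E-SCNT, 2.40, 0.20 and 0.95 FPKM in IVF and 0.58, 0.36 and 0.33 FPKM in SCNT. Summed, the D-type cyclins came to 3.97 and 2.37 FPKM in KDM4E-SCNT, 2.40, 1.08 and 1.24 FPKM in IVF and 0.84, 0.36 and 0.90 FPKM in SCNT. The E-type cyclins came to 58.8 and 24.2 FPKM in KDM4E-SCNT, 27.5, 32.3 and 29.9 FPKM in IVF and 93.1, 74.4 and 61.8 FPKM in SCNT.

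**Figure D3:**
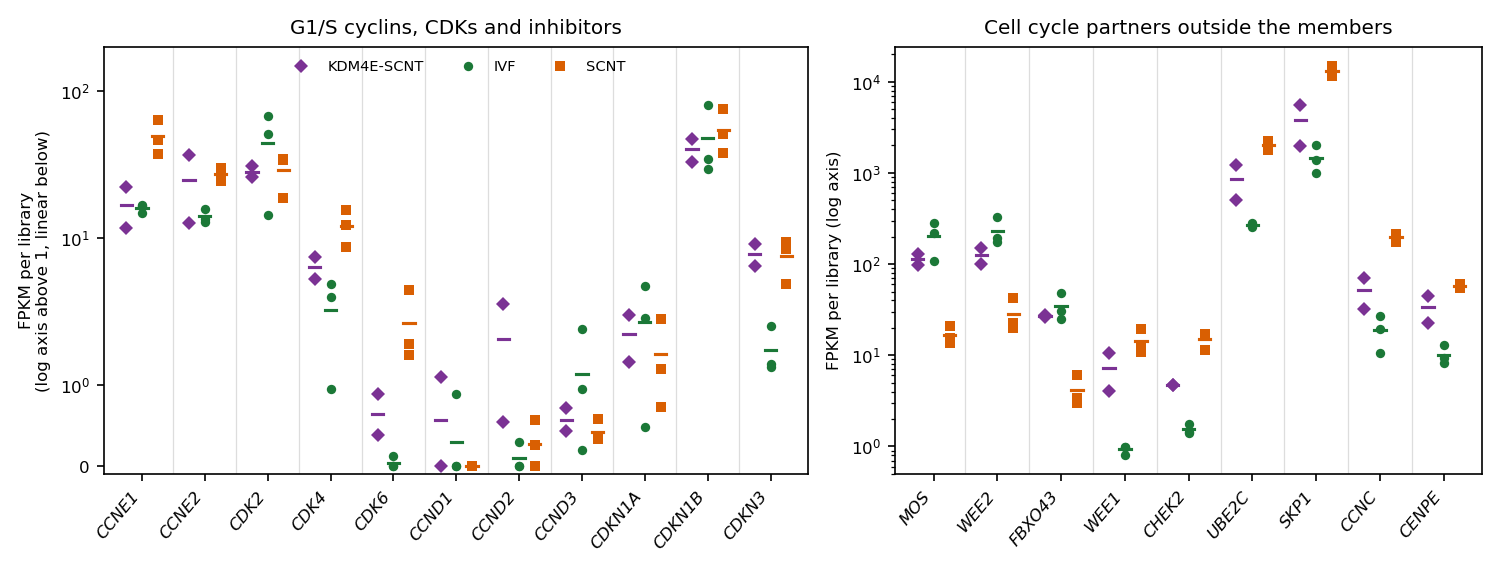
FPKM in each of the 8 libraries for G1 and S phase genes and CDK inhibitors (left, log axis above 1 FPKM and linear below) and for genes of the partner list (right, log axis), with KDM4E-SCNT, IVF and SCNT from left to right; each point is 1 library and each bar a group mean. CCNE1 is highest in SCNT (37.5 to 63.3 FPKM), and MOS and WEE2 are lowest there.

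Among the CDK inhibitors and genes named with them, 1 of 7 tested members was higher in IVF than in SCNT, 3 were lower and 3 were not called. The called share was 57.1%, near the 58.5% of all features. Between KDM4E-SCNT and SCNT none was called by limma, against 32.6% of all features, and none had an unadjusted p under 0.05. CDKN3, a phosphatase that acts on CDKs and not a binding inhibitor, stood at 9.13 and 6.39 FPKM in KDM4E-SCNT, 2.50, 1.37 and 1.32 FPKM in IVF and 8.36, 4.85 and 9.42 FPKM in SCNT. The IVF libraries were below all others, and the KDM4E-SCNT and SCNT libraries overlapped. The difference was -1.63 ± 0.36, adjusted p = 0.00188 for IVF minus SCNT and 1.69 ± 0.40, adjusted p = 0.023 for KDM4E-SCNT minus IVF, and the second call ended without IVF replicate 2 or 3 or KDM4E-SCNT replicate 1 or with only the 2 groups compared (adjusted p = 0.0544 to 0.235). CDKN2C (p18), an inhibitor of CDK4 and CDK6, stood at 36.8 and 15.1 FPKM in KDM4E-SCNT, 23.6, 5.85 and 10.7 FPKM in IVF and 37.4, 70.9 and 30.2 FPKM in SCNT, and its IVF libraries were below every SCNT library. The difference was -1.82 ± 0.49, adjusted p = 0.00668 for IVF minus SCNT. That call held under every alternative run. CDKN2B (p15), another inhibitor of CDK4 and CDK6, was higher in IVF than in SCNT, with 6.02, 2.57 and 2.69 FPKM in IVF, against 0.30, 2.04 and 0.15 FPKM in SCNT. The difference was 1.45 ± 0.45, adjusted p = 0.0146, a call that ended without IVF replicate 1 or SCNT replicate 1 or 3 or with quantile normalization (adjusted p = 0.0516 to 0.0689). The third lower member, CDKN2AIP, encodes a protein that binds the CDKN2A product and is no inhibitor itself, with a difference of -1.07 ± 0.34, adjusted p = 0.0157 for IVF minus SCNT. Its call ended without IVF replicate 3 or SCNT replicate 3 (adjusted p = 0.0669 to 0.0673). The general inhibitors were not called. CDKN1A (p21) stood at 1.42 and 2.97 FPKM in KDM4E-SCNT, 4.67, 0.48 and 2.83 FPKM in IVF and 0.73, 1.28 and 2.81 FPKM in SCNT, CDKN1B (p27) at 33.0 and 47.1 FPKM in KDM4E-SCNT, 34.2, 80.2 and 29.6 FPKM in IVF and 37.6, 75.1 and 50.8 FPKM in SCNT, and CDKN1C (p57) was under 1 FPKM in every library.

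The APC/C held the largest difference of all members tested for IVF minus SCNT. Of 14 tested members of the complex and its activators, 6 were higher in IVF than in SCNT, 3 were lower and 5 were not called. Between KDM4E-SCNT and SCNT, 2 were higher, 1 was lower and 11 were not called. The called shares were 64.3% and 21.4%, against 58.5% and 32.6% of all features. ANAPC11 (ENSBTAG00000001937.3, chromosome 19, 51604152 to 51609338), the RING subunit of the catalytic core, stood at 126 and 159 FPKM in KDM4E-SCNT, 339.7, 189 and 306 FPKM in IVF and 20.3, 16.9 and 16.4 FPKM in SCNT. The groups did not overlap, and every IVF library was above both KDM4E-SCNT libraries, which were above every SCNT library. The difference was 3.85 ± 0.29, adjusted p = 1.1e-06 for IVF minus SCNT and 2.93 ± 0.33, adjusted p = 0.000463 for KDM4E-SCNT minus SCNT. ANAPC15, a small subunit that in human cells helps the checkpoint complex turn over, stood at 476 and 629 FPKM in KDM4E-SCNT, 739.9, 567 and 883 FPKM in IVF and 123, 107 and 108 FPKM in SCNT. The IVF and KDM4E-SCNT libraries overlapped, and all were above every SCNT library. The difference was 2.66 ± 0.26, adjusted p = 5.09e-06 for IVF minus SCNT and 2.27 ± 0.29, adjusted p = 0.000615 for KDM4E-SCNT minus SCNT.

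The other APC/C subunits higher in IVF differed less. ANAPC16, whose span overlaps ASCC1, had a difference of 1.36 ± 0.33, adjusted p = 0.00362, ANAPC1, the large scaffold subunit, of 1.19 ± 0.41, adjusted p = 0.0246, ANAPC13 of 1.17 ± 0.35, adjusted p = 0.0115 and CDC26 of 0.71 ± 0.26, adjusted p = 0.0331 for IVF minus SCNT. The ANAPC1 call ended without IVF replicate 1 or SCNT replicate 2 or 3 or with median-ratio scaling or quantile normalization (adjusted p = 0.054 to 0.0944), the ANAPC13 call ended without SCNT replicate 3 or with median-ratio scaling (adjusted p = 0.0573 to 0.0775) and the CDC26 call ended without IVF replicate 2 or 3 or SCNT replicate 1 or 3 or with median-ratio scaling or upper-quartile scaling (adjusted p = 0.0675 to 0.411). CDC23 and CDC16, tetratricopeptide repeat subunits that form part of the arc of the complex, were lower. CDC23 stood at 3.59 and 2.83 FPKM in KDM4E-SCNT, 0.25, 2.34 and 2.53 FPKM in IVF and 9.87, 8.99 and 6.56 FPKM in SCNT, with every SCNT library above all others. The difference was -1.93 ± 0.42, adjusted p = 0.00173 for IVF minus SCNT, and KDM4E-SCNT minus SCNT was called only under other scalings or sample choices (adjusted p = 0.0745 as deposited, lowest 0.0222). CDC16 stood at 8.40 and 11.7 FPKM in KDM4E-SCNT, 15.2, 12.8 and 16.7 FPKM in IVF and 36.5, 25.9 and 34.8 FPKM in SCNT, with no overlap between any of the 3 groups, and was lowest in KDM4E-SCNT. The difference was -1.06 ± 0.30, adjusted p = 0.00829 for IVF minus SCNT and -1.60 ± 0.33, adjusted p = 0.0042 for KDM4E-SCNT minus SCNT. CDC27, also in the arc, stood at 119 and 71.2 FPKM in KDM4E-SCNT, 84.7, 74.6 and 88.9 FPKM in IVF and 86.1, 82.1 and 138 FPKM in SCNT, and the groups overlapped without a call. CDC20, the activator, stood at 31.4 and 29.3 FPKM in KDM4E-SCNT, 65.6, 19.9 and 56.5 FPKM in IVF and 55.3, 37.9 and 55.7 FPKM in SCNT and was not called in any comparison (adjusted p = 0.663 for IVF minus SCNT). CDC20B, a relative of CDC20 whose symbol and not whose known role places it here, was the third lower member, with -1.23 ± 0.33, adjusted p = 0.00688 for IVF minus SCNT.

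**Figure D4:**
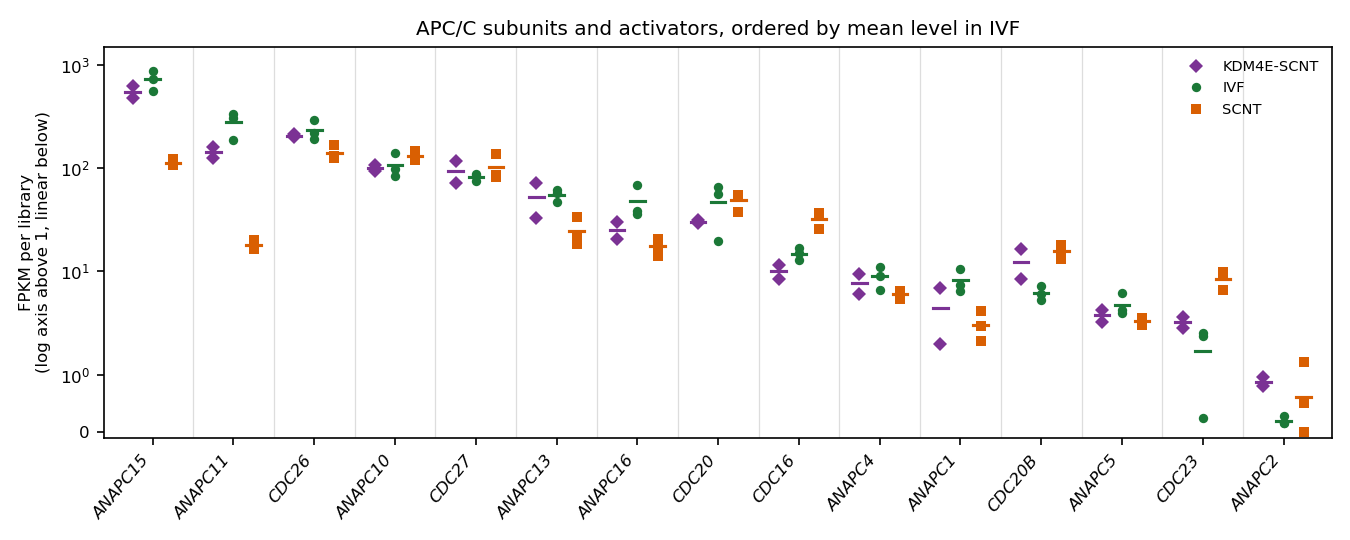
FPKM in each of the 8 libraries for subunits and activators of the APC/C (log axis above 1 FPKM, linear below), with KDM4E-SCNT, IVF and SCNT from left to right; each point is 1 library and each bar a group mean. ANAPC11 is at 16.4 to 20.3 FPKM in SCNT and at 126 FPKM or more in all other libraries, while CDC16 and CDC23 are highest in SCNT.

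Of the 3 spindle checkpoint genes, BUB1 was lower in IVF than in SCNT and the other 2 were not called on the values as deposited. This is 33.3% called, against 58.5% of all features. BUB3, the adaptor that brings its partners to kinetochores, was abundant, with 557 and 412 FPKM in KDM4E-SCNT, 715, 357 and 524 FPKM in IVF and 712, 597 and 678 FPKM in SCNT. The IVF libraries spanned the SCNT range, while both KDM4E-SCNT libraries lay below it, and no comparison was called (adjusted p = 0.274 for IVF minus SCNT and adjusted p = 0.27 for KDM4E-SCNT minus SCNT). With median-ratio scaling BUB3 was called, as lower than in SCNT, in both IVF (limma adjusted p = 0.029) and KDM4E-SCNT (adjusted p = 0.0415). BUB1, a kinetochore kinase, stood at 19.9 and 16.8 FPKM in KDM4E-SCNT, 6.07, 18.2 and 15.6 FPKM in IVF and 30.0, 28.1 and 21.3 FPKM in SCNT. All IVF and KDM4E-SCNT libraries were below all SCNT libraries. The difference was -1.05 ± 0.38, adjusted p = 0.0298 for IVF minus SCNT, a call that ended without IVF replicate 1 or SCNT replicate 1 or 2 or with no filter (adjusted p = 0.0568 to 0.128). BUB1B (BubR1), part of the complex that restrains CDC20, stood at 11.2 and 22.5 FPKM in KDM4E-SCNT, 12.7, 10.5 and 17.5 FPKM in IVF and 20.7, 17.4 and 12.7 FPKM in SCNT, and the groups overlapped (adjusted p = 0.47 for IVF minus SCNT).

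Of 7 Aurora and Polo-like kinases tested, which build the spindle and drive mitotic progression, 4 were higher in IVF than in SCNT (AURKA, AURKC, PLK1 and PLK2), PLK4 was lower, and AURKB and PLK3 were not called, where 34.9% of all features were higher. With CDCA8 and AURKAIP1, which are not kinases, the group had 9 tested members: 5 were higher in IVF than in SCNT, 2 were lower and 2 were not called, and between KDM4E-SCNT and SCNT 2 were higher, 1 was lower and 6 were not called. The called shares of the 9 were 77.8% and 33.3%, against 58.5% and 32.6% of all features. AURKA (ENSBTAG00000013009.5, chromosome 13, 60092043 to 60107177), the centrosomal Aurora kinase, stood at 1188 and 1874 FPKM in KDM4E-SCNT, 3096, 2109 and 2259 FPKM in IVF and 385, 613 and 435 FPKM in SCNT. The 3 groups did not overlap, with IVF highest and SCNT lowest. The difference was 2.39 ± 0.27, adjusted p = 1.8e-05 for IVF minus SCNT and 1.67 ± 0.31, adjusted p = 0.00235 for KDM4E-SCNT minus SCNT. AURKC, the Aurora kinase of germ cells and early embryos, stood at 141 and 186 FPKM in KDM4E-SCNT, 272, 136 and 274 FPKM in IVF and 90.6, 57.1 and 80.8 FPKM in SCNT, with all IVF and KDM4E-SCNT libraries above all SCNT libraries. The difference was 1.52 ± 0.33, adjusted p = 0.00153 for IVF minus SCNT and 1.10 ± 0.36, adjusted p = 0.0346 for KDM4E-SCNT minus SCNT, and the second call ended without SCNT replicate 2 or 3 or KDM4E-SCNT replicate 2 or with no filter, median-ratio scaling or upper-quartile scaling (adjusted p = 0.0669 to 0.205). AURKB, the body-cell member of the chromosomal passenger complex, stood at 60.9 and 56.0 FPKM in KDM4E-SCNT, 76.4, 24.3 and 38.5 FPKM in IVF and 76.2, 35.0 and 57.2 FPKM in SCNT, and the 3 groups overlapped (adjusted p = 0.465 for IVF minus SCNT). AURKC was thus at 2.31 and 3.33 times the level of AURKB in KDM4E-SCNT, 3.56, 5.62 and 7.13 times in IVF and 1.19, 1.63 and 1.41 times in SCNT, a ratio chosen after the values were seen and given without a test.

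CDCA8 (borealin), a partner of both AURKB and AURKC in the passenger complex, stood at 210.4 and 216 FPKM in KDM4E-SCNT, 408, 201 and 372 FPKM in IVF and 128, 123 and 114 FPKM in SCNT. The SCNT libraries were below all others. The difference was 1.35 ± 0.29, adjusted p = 0.00162 for IVF minus SCNT. PLK1, which acts in mitotic entry, spindle assembly and cytokinesis, stood at 17.6 and 34.0 FPKM in KDM4E-SCNT, 45.4, 21.1 and 31.0 FPKM in IVF and 17.5, 11.0 and 10.2 FPKM in SCNT. The lowest IVF library and both KDM4E-SCNT libraries were above every SCNT library, KDM4E-SCNT replicate 1 only narrowly. The difference was 1.24 ± 0.37, adjusted p = 0.0122 for IVF minus SCNT, a call that ended without IVF replicate 1 or SCNT replicate 3 or with median-ratio scaling (adjusted p = 0.0529 to 0.0656). PLK2, a stress-responsive Polo-like kinase, stood at 26.8 and 42.3 FPKM in KDM4E-SCNT, 118, 74.4 and 58.0 FPKM in IVF and 15.3, 19.0 and 19.5 FPKM in SCNT, without overlap between the 3 groups, and differed by 2.10 ± 0.33, adjusted p = 0.000157 for IVF minus SCNT. PLK4, the kinase that starts centriole duplication, ran the other way, with 27.9 and 14.2 FPKM in KDM4E-SCNT, 11.4, 9.29 and 15.1 FPKM in IVF and 30.1, 25.6 and 30.8 FPKM in SCNT. Its difference was -1.23 ± 0.33, adjusted p = 0.0064 for IVF minus SCNT. AURKAIP1, a mitochondrial ribosomal protein first named for binding AURKA, stood at 23.4 and 13.7 FPKM in KDM4E-SCNT, 17.7, 6.32 and 9.46 FPKM in IVF and 75.9, 27.0 and 59.8 FPKM in SCNT. The difference was -2.17 ± 0.44, adjusted p = 0.00106 for IVF minus SCNT and -1.42 ± 0.49, adjusted p = 0.042 for KDM4E-SCNT minus SCNT, and the second call was lost without IVF replicate 3, SCNT replicate 1 or 3 or KDM4E-SCNT replicate 1 or 2 or with a pseudocount of 0.1 or no filter (adjusted p = 0.051 to 0.278).

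Among the 6 genes of replication and the genes listed with them, 2 were higher in IVF than in SCNT, 1 was lower and 3 were not called. The 2 higher ones, CDCA7 and CDCA7L, were also higher in KDM4E-SCNT than in SCNT, where the other 4 were not called. The called share of the group was below the 58.5% of all features for IVF minus SCNT. For KDM4E-SCNT minus SCNT it was 33.3%, near the 32.6% of all features. CDCA7, a chromatin protein that works with the remodeller HELLS, stood at 7.51 and 25.6 FPKM in KDM4E-SCNT, 21.1, 26.4 and 26.8 FPKM in IVF and 4.90, 3.71 and 2.01 FPKM in SCNT. All IVF and KDM4E-SCNT libraries were above all SCNT libraries. The difference was 2.55 ± 0.42, adjusted p = 0.00026 for IVF minus SCNT and 1.78 ± 0.47, adjusted p = 0.0134 for KDM4E-SCNT minus SCNT, and the second call ended without SCNT replicate 3 or KDM4E-SCNT replicate 2 (adjusted p = 0.0544 to 0.201). CDCA7L, its paralog, whose span overlaps an unnamed feature, stood at 21.6 and 33.0 FPKM in KDM4E-SCNT, 26.1, 41.4 and 33.2 FPKM in IVF and 4.46, 5.27 and 6.93 FPKM in SCNT. The difference was 2.39 ± 0.32, adjusted p = 5.23e-05 for IVF minus SCNT and 2.10 ± 0.36, adjusted p = 0.00173 for KDM4E-SCNT minus SCNT. CDC7, the kinase that fires replication origins, stood at 16.6 and 13.3 FPKM in KDM4E-SCNT, 13.8, 9.34 and 12.8 FPKM in IVF and 29.4, 15.6 and 23.6 FPKM in SCNT. The difference was -0.85 ± 0.32, adjusted p = 0.0378 for IVF minus SCNT, a call that ended without IVF replicate 2 or 3 or SCNT replicate 1 or 3 or with no filter (adjusted p = 0.0555 to 0.15). CDC6, which loads the replicative helicase, stood at 52.3 and 58.9 FPKM in KDM4E-SCNT, 68.6, 60.1 and 53.4 FPKM in IVF and 34.4, 41.5 and 48.3 FPKM in SCNT, and all KDM4E-SCNT and IVF libraries were above all SCNT libraries without a call (adjusted p = 0.0953 for IVF minus SCNT). CDC45, a part of the active helicase, stood at 2.98 and 2.18 FPKM in KDM4E-SCNT, 6.31, 2.67 and 2.45 FPKM in IVF and 2.59, 3.15 and 3.16 FPKM in SCNT and was not called (adjusted p = 0.668 for IVF minus SCNT).

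The kinases and cyclins of transcription and splicing moved in both directions. Of 13 tested, 4 were higher in IVF than in SCNT, 2 were lower and 7 were not called, and between KDM4E-SCNT and SCNT 3 were higher, 1 was lower and 9 were not called. Their called shares were 46.2% and 30.8%, below the 58.5% and 32.6% of all features. CDK7, which activates other CDKs and phosphorylates RNA polymerase II, stood at 223 and 316 FPKM in KDM4E-SCNT, 248, 325 and 332 FPKM in IVF and 123, 115 and 112 FPKM in SCNT. All IVF and KDM4E-SCNT libraries were above all SCNT libraries. The difference was 1.35 ± 0.26, adjusted p = 0.000647 for IVF minus SCNT and 1.18 ± 0.29, adjusted p = 0.00855 for KDM4E-SCNT minus SCNT, and the second call ended without KDM4E-SCNT replicate 2 or with median-ratio scaling (adjusted p = 0.0719 to 0.0835). CDK8, the kinase of the Mediator complex, stood at 44.0 and 73.7 FPKM in KDM4E-SCNT, 64.3, 131 and 70.0 FPKM in IVF and 13.2, 22.9 and 18.3 FPKM in SCNT. Its difference was 2.18 ± 0.35, adjusted p = 0.000214 for IVF minus SCNT and 1.63 ± 0.39, adjusted p = 0.00864 for KDM4E-SCNT minus SCNT, and the second call ended without KDM4E-SCNT replicate 2 (adjusted p = 0.107). CDK19, the Mediator paralog of CDK8, was lower in level than CDK8 and differed by 1.55 ± 0.36, adjusted p = 0.00254 for IVF minus SCNT. CDC5L, a core splicing factor whose span overlaps TMEM63B, so that its reads may be mixed, stood at 243 and 331 FPKM in KDM4E-SCNT, 228, 394 and 324 FPKM in IVF and 85.1, 79.7 and 96.1 FPKM in SCNT. All SCNT libraries were below all others, and the difference was 1.81 ± 0.28, adjusted p = 0.000137 for IVF minus SCNT and 1.70 ± 0.31, adjusted p = 0.00223 for KDM4E-SCNT minus SCNT.

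The members of this group that were lower were CCNL2 and CDC40, both tied to splicing. CCNL2 (cyclin L2) differed by -1.48 ± 0.34, adjusted p = 0.00233 for IVF minus SCNT and -1.10 ± 0.38, adjusted p = 0.0408 for KDM4E-SCNT minus SCNT, and the second call was lost without IVF replicate 3, SCNT replicate 1, 2 or 3 or KDM4E-SCNT replicate 2 or with no filter or the replicate block (adjusted p = 0.0526 to 0.289). CDC40 differed by -0.97 ± 0.31, adjusted p = 0.0165 for IVF minus SCNT, a call that ended without IVF replicate 1 or SCNT replicate 3 (adjusted p = 0.069 to 0.0705). CDK9, CDK12 and CDK13, the elongation kinases, were not called in any comparison on the values as deposited, nor was the feature labelled CDK11B, which the files also describe as similar to a solute carrier and whose identity is therefore uncertain. For IVF minus SCNT, CDK9 was called as lower with median-ratio scaling (limma adjusted p = 0.0187), and CDK13 with median-ratio scaling and with quantile normalization (lowest adjusted p = 0.0176).

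Most members listed with CDK5, the PCTAIRE and CDK-like kinases and their partners were higher in both IVF and KDM4E-SCNT than in SCNT. The list also holds genes with similar symbols and other roles, such as CDKAL1. Of 11 tested, 8 were higher in IVF than in SCNT, 1 was lower and 2 were not called, and the counts for KDM4E-SCNT minus SCNT were 8, 1 and 2. CDK16, a PCTAIRE kinase, and CDK5RAP3 were called in neither comparison on the values as deposited. The called share was 81.8% in each comparison, against 58.5% and 32.6% of all features. CDKL1, a CDK-like kinase linked to cilia, stood at 15.9 and 34.1 FPKM in KDM4E-SCNT, 45.0, 47.0 and 31.8 FPKM in IVF and 1.54, 3.32 and 2.75 FPKM in SCNT. Every IVF and KDM4E-SCNT library was several times above every SCNT library. The difference was 3.59 ± 0.36, adjusted p = 7.38e-06 for IVF minus SCNT and 2.82 ± 0.41, adjusted p = 0.000904 for KDM4E-SCNT minus SCNT. CDK17, a PCTAIRE kinase, stood at 98.7 and 126 FPKM in KDM4E-SCNT, 91.8, 139 and 80.6 FPKM in IVF and 17.8, 21.7 and 17.6 FPKM in SCNT, and its difference was 2.35 ± 0.29, adjusted p = 3.03e-05 for IVF minus SCNT and 2.49 ± 0.33, adjusted p = 0.000665 for KDM4E-SCNT minus SCNT. CDKAL1, the tRNA-modifying enzyme, stood at 55.9 and 122 FPKM in KDM4E-SCNT, 111, 116 and 100.3 FPKM in IVF and 14.3, 21.9 and 13.0 FPKM in SCNT, and its difference was 2.70 ± 0.33, adjusted p = 3e-05 for IVF minus SCNT and 2.30 ± 0.37, adjusted p = 0.0014 for KDM4E-SCNT minus SCNT. In all 3 genes the IVF and KDM4E-SCNT libraries overlapped and the SCNT libraries lay below both.

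CDK5, best known for its roles in neurons, stood at 115 and 301 FPKM in KDM4E-SCNT, 283, 183 and 286 FPKM in IVF and 37.9, 25.1 and 42.7 FPKM in SCNT, a difference of 2.80 ± 0.37, adjusted p = 4.66e-05 for IVF minus SCNT and 2.40 ± 0.41, adjusted p = 0.00178 for KDM4E-SCNT minus SCNT. The SCNT libraries lay below all others. Its neuronal activators CDK5R1 and CDK5R2 were under 1 FPKM in every library. CDK5RAP2, a centrosomal protein that anchors microtubule nucleation, differed by 2.25 ± 0.33, adjusted p = 0.000104 and 2.03 ± 0.37, adjusted p = 0.00221 in the same comparisons. CDKL2 differed by 2.05 ± 0.29 and 1.29 ± 0.32, CDK2AP2 by 1.93 ± 0.30 and 1.54 ± 0.34, and CDK2AP1 by 1.40 ± 0.27 and 1.13 ± 0.31, all called in both comparisons. For KDM4E-SCNT minus SCNT, the CDKL2 call ended without KDM4E-SCNT replicate 2 or with median-ratio scaling (adjusted p = 0.0558 to 0.0644) and the CDK2AP1 call ended without SCNT replicate 1 or 3 or KDM4E-SCNT replicate 2 or with median-ratio scaling (adjusted p = 0.0514 to 0.111). CDK5RAP1, a mitochondrial tRNA-modifying enzyme, was the lower member, with -1.20 ± 0.34, adjusted p = 0.00904 for IVF minus SCNT and -1.06 ± 0.38, adjusted p = 0.0491 for KDM4E-SCNT minus SCNT. The second of these calls was lost without IVF replicate 1 or 3, SCNT replicate 1, 2 or 3 or KDM4E-SCNT replicate 1 or 2 or with a pseudocount of 0.1, no filter, only the 2 groups compared or the replicate block (adjusted p = 0.0529 to 0.298).

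CDC14A (ENSBTAG00000031439.3, chromosome 3, 42934668 to 43107421), a phosphatase of the family that in budding yeast drives exit from mitosis, held the largest difference downwards among the members in both comparisons with SCNT. It stood at 4.68 and 2.34 FPKM in KDM4E-SCNT, 1.18, 1.47 and 0.16 FPKM in IVF and 24.9, 14.2 and 18.3 FPKM in SCNT. All SCNT libraries were above all others, and both KDM4E-SCNT libraries were above all IVF libraries. The difference was -3.42 ± 0.40, adjusted p = 1.91e-05 for IVF minus SCNT and -2.17 ± 0.44, adjusted p = 0.00387 for KDM4E-SCNT minus SCNT, and the second call ended without KDM4E-SCNT replicate 2 (adjusted p = 0.0567). Its paralog CDC14B stood at 7.54 and 5.71 FPKM in KDM4E-SCNT, 6.63, 9.17 and 4.20 FPKM in IVF and 4.02, 4.58 and 5.23 FPKM in SCNT and was not called in any comparison. Among the 7 tested genes of mitotic exit and other CDC-named genes, 2 were higher in IVF than in SCNT, 1 was lower and 4 were not called. This is 42.9% called, against 58.5% of all features. The higher ones were CDCA3, a ubiquitin ligase adaptor for WEE1, with 1.37 ± 0.41, adjusted p = 0.0116, and CDC34, a ubiquitin-conjugating enzyme that works with SCF ligases, with 0.91 ± 0.34, adjusted p = 0.0368. The CDCA3 call ended without IVF replicate 3 or SCNT replicate 2 or with median-ratio scaling (adjusted p = 0.0532 to 0.0668) and the CDC34 call ended without IVF replicate 1 or 3 or SCNT replicate 2 or 3 or with no filter, median-ratio scaling, upper-quartile scaling or quantile normalization (adjusted p = 0.0539 to 0.205). CDC34 was also higher in KDM4E-SCNT than in SCNT, with 1.17 ± 0.38, adjusted p = 0.0342, a call that ended without SCNT replicate 2 or 3 or KDM4E-SCNT replicate 1 or 2 or with no filter, median-ratio scaling, upper-quartile scaling or quantile normalization (adjusted p = 0.0549 to 0.189).

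Both G-type cyclins were higher in IVF than in SCNT, as were 34.9% of all features. CCNG1, a p53 target in human and mouse cells, stood at 233 and 255 FPKM in KDM4E-SCNT, 583, 321 and 434 FPKM in IVF and 109, 118 and 141 FPKM in SCNT. The 3 groups did not overlap, with IVF highest and SCNT lowest. The difference was 1.82 ± 0.27, adjusted p = 0.000125 for IVF minus SCNT and 0.99 ± 0.31, adjusted p = 0.0261 for KDM4E-SCNT minus SCNT, and the second call ended without SCNT replicate 1 or 2 or KDM4E-SCNT replicate 1 or 2 or with median-ratio scaling or upper-quartile scaling (adjusted p = 0.0523 to 0.203). CCNG2, linked to cell cycle arrest, stood at 1.41 and 5.23 FPKM in KDM4E-SCNT, 5.16, 6.44 and 4.38 FPKM in IVF and 0.75, 2.04 and 2.11 FPKM in SCNT, a difference of 1.30 ± 0.42, adjusted p = 0.0172 for IVF minus SCNT, called except without IVF replicate 2 or SCNT replicate 1 or with median-ratio scaling or quantile normalization (adjusted p = 0.0521 to 0.0813). CCNB1IP1, a meiotic recombination factor named for its binding to cyclin B1, stood at 2.83 and 7.81 FPKM in KDM4E-SCNT, 5.07, 6.20 and 3.78 FPKM in IVF and 6.31, 4.36 and 5.79 FPKM in SCNT and was not called in any comparison.

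Genes outside the naming rule that work with these regulators were taken from a list of 76 symbols, of which 69 were measured and 67 tested. For IVF minus SCNT 25 were higher, 18 lower and 24 not called, with a median log2 difference of -0.05 against 0.39 over all features tested. The called share was 64.2% of partners and 58.5% of all features. For KDM4E-SCNT minus SCNT 16 were higher, 5 lower and 46 not called, a called share of 31.3% against 32.6% of all features, with medians of 0.07 and 0.32. For KDM4E-SCNT minus IVF 5 were higher and 62 not called, a called share of 7.46% against 6.52%, with medians of 0.10 and -0.03. The controls of CDK1 in the oocyte were among them. MOS, the kinase that holds the egg in metaphase, stood at 99.0 and 128 FPKM in KDM4E-SCNT, 279.9, 109 and 221 FPKM in IVF and 21.0, 15.5 and 13.8 FPKM in SCNT, a difference of 3.44 ± 0.35, adjusted p = 8.06e-06 for IVF minus SCNT and 2.70 ± 0.39, adjusted p = 0.000975 for KDM4E-SCNT minus SCNT. WEE2, the oocyte form of the kinase that restrains CDK1, stood at 100.3 and 149 FPKM in KDM4E-SCNT, 331, 174 and 193 FPKM in IVF and 20.0, 42.6 and 22.9 FPKM in SCNT, a difference of 3.00 ± 0.35, adjusted p = 2.09e-05 for IVF minus SCNT and 2.14 ± 0.40, adjusted p = 0.00239 for KDM4E-SCNT minus SCNT. In both genes every SCNT library was below all others. WEE1, the body-cell form, chosen after its values were seen, ran the other way, with 10.6 and 4.04 FPKM in KDM4E-SCNT, 0.98, 0.99 and 0.81 FPKM in IVF and 10.8, 12.5 and 19.4 FPKM in SCNT. The IVF libraries were below all others, and the difference was -2.94 ± 0.38, adjusted p = 4.33e-05 for IVF minus SCNT and 1.99 ± 0.43, adjusted p = 0.0131 for KDM4E-SCNT minus IVF. The second call ended without KDM4E-SCNT replicate 1 or with only the 2 groups compared (adjusted p = 0.0574 to 0.224).

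Of the APC/C partners, UBE2C, the enzyme that feeds ubiquitin to the complex, stood at 1212 and 510.4 FPKM in KDM4E-SCNT, 255, 272 and 286 FPKM in IVF and 2143, 2224 and 1769 FPKM in SCNT. The groups were in the order SCNT, KDM4E-SCNT and IVF from high to low, without overlap. The difference was -2.91 ± 0.30, adjusted p = 8.24e-06 for IVF minus SCNT, -1.37 ± 0.33, adjusted p = 0.00895 for KDM4E-SCNT minus SCNT and 1.54 ± 0.33, adjusted p = 0.0139 for KDM4E-SCNT minus IVF. The call against SCNT in KDM4E-SCNT ended without KDM4E-SCNT replicate 2 (adjusted p = 0.103). Its call against IVF ended without IVF replicate 1 or KDM4E-SCNT replicate 1 or with only the 2 groups compared (adjusted p = 0.0511 to 0.161). FBXO43 (EMI2), the egg's inhibitor of the APC/C, chosen after its values were seen, stood at 27.4 and 26.6 FPKM in KDM4E-SCNT, 24.9, 47.9 and 30.5 FPKM in IVF and 3.01, 3.37 and 6.13 FPKM in SCNT, a difference of 2.77 ± 0.35, adjusted p = 3.18e-05 for IVF minus SCNT and 2.48 ± 0.39, adjusted p = 0.00123 for KDM4E-SCNT minus SCNT. SKP1, a core part of SCF ubiquitin ligases, stood at 5561 and 1983 FPKM in KDM4E-SCNT, 1402, 994 and 2010.1 FPKM in IVF and 14727, 11445 and 13121 FPKM in SCNT. Its difference was -3.21 ± 0.35, adjusted p = 1.32e-05 for IVF minus SCNT and -1.97 ± 0.39, adjusted p = 0.00356 for KDM4E-SCNT minus SCNT. Both calls held under every alternative run.

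CCNC (cyclin C), the partner of CDK8 and CDK19 in Mediator, stood at 70.8 and 32.3 FPKM in KDM4E-SCNT, 27.2, 10.7 and 19.4 FPKM in IVF and 201, 176 and 211 FPKM in SCNT. The direction was opposite to that of both kinases, with every SCNT library above all others. The difference was -3.38 ± 0.37, adjusted p = 1.3e-05 for IVF minus SCNT and -2.01 ± 0.42, adjusted p = 0.00413 for KDM4E-SCNT minus SCNT, and the second call ended without KDM4E-SCNT replicate 2 (adjusted p = 0.0671). CHEK2, a kinase of the DNA damage checkpoint, stood at 4.67 and 4.70 FPKM in KDM4E-SCNT, 1.39, 1.45 and 1.78 FPKM in IVF and 16.5, 11.4 and 17.1 FPKM in SCNT, a difference of -2.64 ± 0.32, adjusted p = 2.51e-05 for IVF minus SCNT and -1.47 ± 0.36, adjusted p = 0.00854 for KDM4E-SCNT minus SCNT, the second call ending without KDM4E-SCNT replicate 2 (adjusted p = 0.0566). The small CDK-binding subunits CKS1B and CKS2, also chosen after their values were seen, went apart. CKS1B stood at 4451 and 5786 FPKM in KDM4E-SCNT, 4727, 7232 and 4234 FPKM in IVF and 1129, 2859.7 and 1347 FPKM in SCNT, and CKS2 at 10276 and 6052 FPKM in KDM4E-SCNT, 4888, 6154 and 5010.1 FPKM in IVF and 11395, 12261 and 10483 FPKM in SCNT. For IVF minus SCNT the difference was 1.68 ± 0.33, adjusted p = 0.000921 for CKS1B and -1.09 ± 0.23, adjusted p = 0.00155 for CKS2. The remaining partners higher in KDM4E-SCNT than in IVF were CCNT1 (1.66 ± 0.38, adjusted p = 0.0176), the cyclin of CDK9, and the kinetochore genes CENPE (1.58 ± 0.36, adjusted p = 0.0177) and SPC25 (1.29 ± 0.33, adjusted p = 0.032), all chosen after their values were seen. For CCNT1 the call ended without KDM4E-SCNT replicate 1 (adjusted p = 0.153), for CENPE without KDM4E-SCNT replicate 1 or with only the 2 groups compared (adjusted p = 0.0734 to 0.272) and for SPC25 without IVF replicate 1 or 3, SCNT replicate 3 or KDM4E-SCNT replicate 1 or 2 or with no filter, median-ratio scaling, upper-quartile scaling, quantile normalization, only the 2 groups compared or the replicate block (adjusted p = 0.0519 to 0.225).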

How the data were processed

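Gene-level FPKM values, 1 file per library, were deposited by the authors, with the value to 2 decimals, the feature identifier, symbol and coordinates per the file headers. Named in the submitters' processing notes are the build UMD 3.1 and the tools RSEM 1.2.12, Bowtie2 2.2.5, HISAT 0.1.6, bcl2fastq 2.16 and StringTie 1.0.4, and what each did is not given in the sources used here. Whether counting used strand is not stated. The files hold no counts, so the sequencing depth is unknown and no counting interval is given.

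The 8 files were joined by identifier and groups were taken from the labels. The 14839 of 21258 features that reached 1 FPKM in 2 or more libraries were tested as log2(FPKM + 1), which understates the change of low genes, in 1 limma-trend fit with robust moderation and group means (limma 3.58.1, R 4.3.3). P-values are two-sided and were adjusted by the Benjamini-Hochberg method over all features tested. The code of the fit was also run on simulated data in which few features were changed. Many more features differed in the data described here, so that run does not measure the error rates of these results. Errors are standard errors of the fitted difference. Alternatives were a pseudocount of 0.1, no filter, a filter of 4 libraries, median-ratio, upper-quartile or quantile scaling, only the 2 groups compared, the replicate number as a block and each library left out.

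The members, role lists, partner list and markers were chosen with earlier results of these data known. Described in full are a core list of mitotic, S phase, inhibitor, checkpoint and replication genes, the 3 members of each role list with the smallest p for IVF minus SCNT and the 2 with the smallest p for KDM4E-SCNT minus SCNT, members called between KDM4E-SCNT and IVF, and the 6 partners with the smallest p. ANAPC1, ANAPC13, ANAPC16, CDC16, CDC20B, CDC26, CDC27, CDCA8, CDKN2AIP, CDC14B, CDK19, CCNL2, CDC40, CDK5, CDK16, CDK5RAP1, CDK5RAP2, CDK5RAP3, CDKL2, CDK2AP1 and CDK2AP2 were named after their values were seen.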

Additional observations from a re-analysis of the deposited data

How the results depend on the processing

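For IVF minus SCNT the number of members called in each direction stayed within 1.5 times under every alternative run, with 27 to 35 higher and 15 to 20 lower when single libraries were left out. The balance of directions did change with scaling. Under median-ratio scaling the 35 higher and 19 lower calls became 25 and 26, so higher calls no longer outnumbered lower ones. For KDM4E-SCNT minus SCNT the 21 higher calls became 13 under median-ratio scaling and 11 to 24 without single libraries, and the 6 lower calls became 3 with no filter, 12 under median-ratio scaling, 10 under upper-quartile scaling, 10 under quantile normalization and 1 to 6 without single libraries. For KDM4E-SCNT minus IVF the 2 higher calls became 1 when only the 2 groups compared were fitted and 0 to 2 without single libraries, and the lower calls became 1 under quantile normalization and 0 to 2 without single libraries. Leaving out a KDM4E-SCNT library leaves that group with 1, which the fit assumes to vary like the others. The share of higher calls among members called for KDM4E-SCNT minus SCNT was 77.8% as deposited, 52.0% under median-ratio scaling, 63.0% under upper-quartile scaling and 66.7% under quantile normalization, and the cause was not tested. The members tested and the partners described above were followed gene by gene through the alternatives. Those partners had been picked by smallest p or after their values were seen, and the other partners were not followed. Of 109 called differences of the genes followed, 42 lost their call under at least 1 alternative and 0 changed sign. Picked by hand were 4 uncalled differences (CDK1, CCNB2 and CDC25C for KDM4E-SCNT minus SCNT, CCNB1 for KDM4E-SCNT minus IVF), each called under at least 1 alternative. These genes had 181 other differences that were not called. Of the 181, 25 were called under at least 1 alternative (10 of 31 for IVF minus SCNT, 10 of 60 for KDM4E-SCNT minus SCNT and 5 of 90 for KDM4E-SCNT minus IVF), and 72 changed sign under at least 1. With the replicate number as a block, the calls were 35 higher and 19 lower for IVF minus SCNT, 21 and 4 for KDM4E-SCNT minus SCNT, and 2 and 0 for KDM4E-SCNT minus IVF. Same-numbered libraries of different groups had deviations from their group means correlated at 0.0065 to 0.123, all positive. Libraries of different number had correlations from -0.134 to 0.134. Deviations within a group depend on each other, so these values do not settle whether the numbers pair the libraries, and the main fit used no pairing. Sequencing depth is unknown, so how far it limits the low members could not be judged.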

Other observations

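Some members lie close together in the genome (UMD3.1 coordinates of the files, gaps of at most 200 kb counted). CDK7 and CCNB1 are 47.3 kb apart on chromosome 20, and both were higher in IVF than in SCNT. CDC23 and CDC25C are 70.2 kb apart on chromosome 7, and CDC23 was lower in IVF than in SCNT while CDC25C was higher. CCNL2 and AURKAIP1 are 1.69 kb apart on chromosome 16, and both were lower in IVF than in SCNT and in KDM4E-SCNT than in SCNT. Several members overlap another gene, such as ANAPC10 with ABCE1 and CDC5L with TMEM63B, and since counting by strand is not stated, reads of overlapping genes may not be separated.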
